A study of Rattus norvegicus with 12 samples.

Results

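Neurofilaments and neuronal microtubule proteins were followed through the transcriptome of the rat medial prefrontal cortex (mPFC). The 10 genes, chosen by symbol from the 29009 genes of the deposited count table, were the neurofilament subunits Nefl, Nefm, Nefh and Ina and the microtubule genes Mapt, Map1a, Map1b, Map2, Tubb3 and Stmn2. Each symbol matched 1 row, and all 10 genes passed the filter on low counts that left 19094 genes for testing. Adult male Sprague Dawley rats were studied in 3 groups of 4, with 1 library per rat. CPA+RO and CPA+veh rats, the model of chronic prefrontal activation, carried an adeno-associated virus (AAV8) in the mPFC that expressed the excitatory designer receptor hM3D(Gq) fused to mCherry under an mCaMKIIa promoter, and control+veh rats carried a virus for the fluorophore alone. All rats of the 3 groups were given clozapine-N-oxide (CNO), which activates hM3Dq, in their drinking water for 10 days at a dose of 2 mg/kg. Over the following 7 days CPA+RO rats were injected daily with the oxytocin receptor agonist RO6958375 at 0.07 mg/kg, and CPA+veh and control+veh rats with vehicle. The receptor is made only by infected cells in which the promoter is active, whereas the RNA came from whole mPFC tissue dissected from slices after electrophysiology. A change in the number of neurons and a change in RNA per neuron therefore cannot be told apart.

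Neurofilaments are the intermediate filaments of neurons. In the central nervous system the light subunit (Nefl), the medium (Nefm) and heavy (Nefh) subunits, whose long tails project from the filament and are heavily phosphorylated, and α-internexin (Ina) assemble together and set the calibre of large axons. Microtubules are polymers of α- and β-tubulin and carry transport along axons and dendrites. Tau (Mapt) binds them mainly in axons and Map2 mainly in dendrites and cell bodies, Map1b is the MAP1 protein of growing neurites and Map1a that of mature ones, Tubb3 is the β-tubulin typical of neurons, and Stmn2 is a stathmin that binds free tubulin and favours microtubule disassembly.

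Total counts per library were 67837257 to 79006972 in CPA+RO, 64993543 to 74277096 in CPA+veh and 68084135 to 77291797 in control+veh. Of the counts from 1 to 9, 92.7% were even, as when a fragment counts once for each mate, so fragments were fewer than these totals. Levels are given in CPM, counts scaled to the size of the library by TMM, for comparisons of 1 gene between libraries, and in the deposited RPKM, which divide by gene length, for comparisons between genes. As a check of the labels, Chrm3, the rat counterpart of the human receptor gene from which hM3Dq was engineered, had 170.3, 246.7, 100.8 and 167.3 CPM in CPA+RO, 71.1, 225.0, 184.8 and 291.7 CPM in CPA+veh and 53.1 to 64.9 CPM in control+veh. Every CPA rat lay above every control+veh rat, with CPA+veh replicate 1 nearest to them. The tissue had the markers of cortical neurons, with the summed level of 5 excitatory neuron markers at 3002 to 3283 CPM in CPA+RO, 2816 to 3521 CPM in CPA+veh and 2689 to 3024 CPM in control+veh, whereas 5 choroid plexus markers summed to at most 2.57 CPM in any library. CPA+veh replicates 1 and 2 stood apart from the rest. Their 8 oligodendrocyte markers summed to 5042 and 3530.0 CPM, where the 10 other libraries had 2570 to 3033 CPM, and their 6 endothelial markers to 77.8 and 80.5 CPM, where the others had 109.8 to 150.1 CPM.

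Together the 10 genes took 0.8354% of all counts. Per gene length, Stmn2 was highest with 273.5 ± 16.02 RPKM (SD, n = 12 libraries) and lay above Tubb3, the next, in 12 of 12 libraries. Tubb3 (205.8 ± 14.6 RPKM) and Map1b (197.4 ± 29.9 RPKM) could not be ordered, as Tubb3 was above Map1b in 6 of 12 libraries. Nefl followed with 170.3 ± 5.38 RPKM and lay below Map1b in 10 libraries and above Map2 (152.7 ± 20.3 RPKM) in 9. Map2 was above Map1a (133.2 ± 15.7 RPKM) in 12 of 12 libraries. Map1a was above Mapt (125.3 ± 5.44 RPKM) in 10 libraries, and Mapt above Ina (96.4 ± 3.06 RPKM) in all 12. Nefm (39.2 ± 4.55 RPKM) and Nefh (14.4 ± 1.47 RPKM) were the lowest in every library, in this order. The least abundant of the 10 genes, Nefh, still had at least 2989 counts in each library, so that counting error was small beside the differences between rats.

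Promoter windows are shown for Map1a and Map1b, the pair of MAP1 genes that were both low in the same 2 libraries, and for Tubb3, the gene with separate CPA+RO and control+veh groups. RefSeq windows of GRCr8 were matched by gene ID for 5 of the 10 genes (Ina, Map1a, Map1b, Map2 and Tubb3), and the 250 bases before the annotated start are given here 5′ to 3′ on the strand of the gene. Capitals mark a TATA box (TATAAA) or a GC box (GGGCGG), each searched on both strands.

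Map1b (chr2:32644472-32644721, minus strand): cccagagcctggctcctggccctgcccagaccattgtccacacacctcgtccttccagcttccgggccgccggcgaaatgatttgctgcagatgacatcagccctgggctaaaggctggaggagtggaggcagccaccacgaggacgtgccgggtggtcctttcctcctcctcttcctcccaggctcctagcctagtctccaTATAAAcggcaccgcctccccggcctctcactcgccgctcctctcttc

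Map1a (chr3:128722445-128722694, plus strand): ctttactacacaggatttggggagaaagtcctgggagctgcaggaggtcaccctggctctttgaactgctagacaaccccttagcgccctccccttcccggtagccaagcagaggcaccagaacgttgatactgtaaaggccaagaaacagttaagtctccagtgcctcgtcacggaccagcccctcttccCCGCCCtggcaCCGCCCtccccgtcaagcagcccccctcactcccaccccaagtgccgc

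Tubb3 (chr19:68365437-68365686, plus strand): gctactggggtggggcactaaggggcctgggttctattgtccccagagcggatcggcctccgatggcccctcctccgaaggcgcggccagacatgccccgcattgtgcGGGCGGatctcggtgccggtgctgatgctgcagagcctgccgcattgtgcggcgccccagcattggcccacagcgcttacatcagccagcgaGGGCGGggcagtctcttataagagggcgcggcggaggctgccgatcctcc

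The Map1b window held 1 TATAAA and no GGGCGG, while those of Map1a and Tubb3 held 2 GGGCGG each and no TATAAA. The window of Ina held 2 GGGCGG and that of Map2 neither motif. Of 27457 windows of this length 13.1% held TATAAA and 32.4% held GGGCGG, and the GC content was 60.4% for Map1a, 63.6% for Map1b, 68.0% for Tubb3, 70.8% for Ina and 32.0% for Map2, against a median of 52%. The windows of Map1a and Map2 lie at starts inside the annotated gene. A match is a description of these letters and shows no bound factor.

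Whether chronic activation, or the agonist after it, changed the expression of these genes was asked by 3 comparisons in 1 edgeR quasi-likelihood fit of all 12 libraries. None of the 10 genes passed an adjusted p of 0.05 in any comparison. In CPA+veh against control+veh 0 of 10 were called, where 0.115% of all genes were, in CPA+RO against CPA+veh 0 of 10, where 0% were, and in CPA+RO against control+veh 0 of 10, where 0.11% were. DESeq2 and limma-voom also called 0 of the 10 genes in each comparison. The rats of the groups compared did not overlap for 0 of the 10 genes in CPA+veh against control+veh (4.62% of all genes), 0 in CPA+RO against CPA+veh (1.95%) and 1, Tubb3, in CPA+RO against control+veh (5.57%). At an unadjusted p under 0.05 edgeR had 1 of the 10 genes, Nefm, in CPA+veh against control+veh (9.94% of all genes), 0 in CPA+RO against CPA+veh (4.41%) and 0 in CPA+RO against control+veh (5.75%). The median log2 fold change over the 10 genes was 0.05 in CPA+veh against control+veh, 0.03 in CPA+RO against CPA+veh and 0.09 in CPA+RO against control+veh, beside medians of 0.0066, -0.0066 and 4.3e-05 over all genes tested. Of the 10 genes, 6, 6 and 9 lay above 0 in these comparisons, against 51.9%, 48% and 50% of all genes. The size of these medians depended on single libraries, though each stayed above 0 with any 1 library left out. Without control+veh replicate 1, the median was 0.0028 in CPA+veh and 0.04 in CPA+RO, each against control+veh, with 5 and 7 of the 10 genes above 0. Without CPA+veh replicate 2 it was 0.07 in CPA+veh against control+veh, with 9 of 10 above 0, and without CPA+veh replicate 1 it was 0.0087 in CPA+RO against CPA+veh. Without both of these CPA+veh libraries the median in CPA+RO against CPA+veh was -0.02, with 4 of 10 above 0. The CPA+veh libraries enter the first and the second comparison and the control+veh libraries the first and the last, so these counts are not independent of each other.

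**Figure D1:**
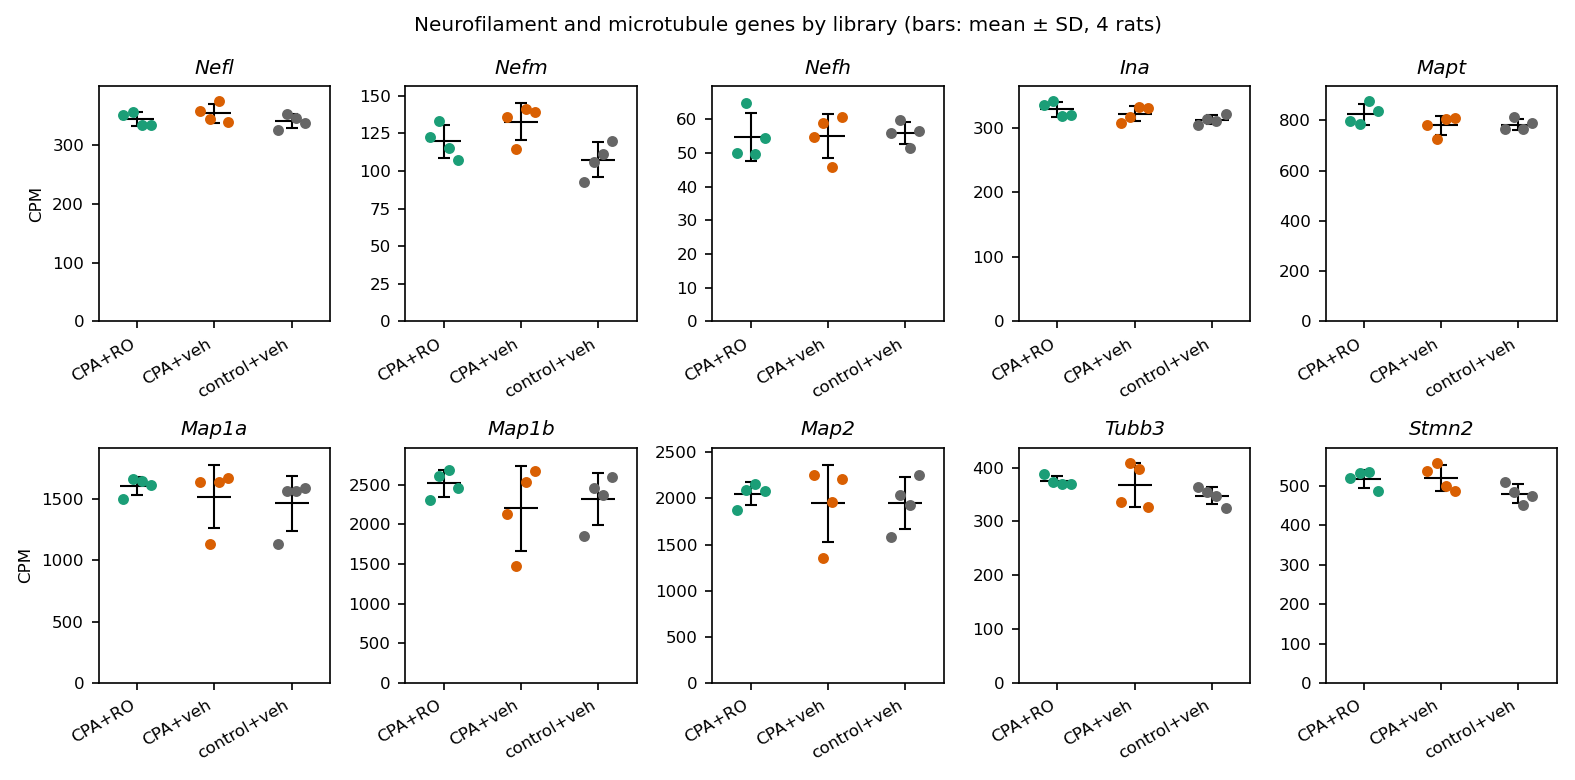
Level of each of the 10 genes in CPM (vertical axes from 0) in CPA+RO, CPA+veh and control+veh, with 1 point per rat in the order of replicates 1 to 4 and black bars for the mean ± SD of 4 rats. Groups overlap for every gene and pair of groups except Tubb3 in CPA+RO and control+veh, and CPA+veh replicate 2 and control+veh replicate 1 are low in Map1a, Map1b and Map2.

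Among the neurofilament genes the medium subunit stood farthest from control. Nefm had 136.0, 114.9, 141.3 and 139.0 CPM in CPA+veh, against 92.7, 105.7, 111.4 and 120.0 CPM in control+veh. The groups overlapped through CPA+veh replicate 2 and control+veh replicate 4, while the other 3 CPA+veh rats lay above all control+veh rats. The level of Nefm was 1.24-fold that of control+veh (log2 fold change 0.31, standard error 0.09, 95% interval 0.11 to 0.50), and this difference did not pass after adjustment over all genes (edgeR, adjusted p = 0.310). CPA+RO rats lay between them with 122.8, 133.2, 115.2 and 107.1 CPM and overlapped both other groups. Nefm was at -0.15 on the log2 scale in CPA+RO against CPA+veh (standard error 0.09, adjusted p = 0.876) and at 0.15 in CPA+RO against control+veh (standard error 0.09, adjusted p = 0.881). With 1 library left out at a time these values ran from -0.21 to -0.10 and from 0.09 (without control+veh replicate 1) to 0.21. The oligodendrocyte and endothelial markers departed in CPA+veh replicates 1 and 2, and Nefm was 0.38 on the log2 scale in CPA+veh against control+veh without both (adjusted p = 0.344).

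The light subunit Nefl, the backbone of the filament, varied little. It had 350.3, 356.1, 332.8 and 333.7 CPM in CPA+RO, 357.4, 344.4, 374.5 and 337.7 CPM in CPA+veh and 324.8, 351.6, 346.1 and 336.3 CPM in control+veh. All 3 groups overlapped, and its coefficient of variation over the 12 libraries, 3.94%, was below the median of 6.81% over the 2339 genes with a mean of at least 100 CPM. Its log2 fold change was 0.06 in CPA+veh against control+veh, with a 95% interval of -0.05 to 0.16. Ina was as even, with 318.5 to 342.2 CPM in CPA+RO, 307.2 to 332.0 CPM in CPA+veh and 304.5 to 321.8 CPM in control+veh and a coefficient of variation of 3.65%. Its log2 fold change was 0.04 in CPA+veh (interval -0.06 to 0.14) and 0.07 in CPA+RO (interval -0.03 to 0.17), each against control+veh. The heavy subunit Nefh had 49.9, 64.9, 49.5 and 54.6 CPM in CPA+RO, 54.7, 58.8, 45.8 and 60.7 CPM in CPA+veh and 55.9, 59.7, 51.5 and 56.5 CPM in control+veh. The group means of Nefh, 54.7 ± 7.18, 55.0 ± 6.64 and 55.9 ± 3.38 CPM in that order of groups (SD, n = 4), lay within 1 SD of each other, and its log2 fold change was -0.02 in CPA+veh against control+veh (interval -0.23 to 0.19).

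Within a library the 4 subunits can be set against each other without any scaling of libraries. Of their summed RPKM, Nefl made up 52.7 ± 0.59% in CPA+RO, 53.0 ± 1.43% in CPA+veh and 53.8 ± 0.997% in control+veh (mean ± SD of 4 rats), and Ina 30.8 ± 0.27%, 29.4 ± 0.95% and 30.2 ± 0.61% in the same groups. Nefm made up 12.1 ± 0.64% in CPA+RO, 13.2 ± 0.94% in CPA+veh and 11.3 ± 0.94% in control+veh, and Nefh 4.42 ± 0.45%, 4.36 ± 0.63% and 4.67 ± 0.30%. The ratio of the RPKM of Nefm to that of Nefl was 0.252, 0.221, 0.250 and 0.273 in CPA+veh, against 0.189, 0.199, 0.213 and 0.237 in control+veh. It was 1.19-fold higher in mean (difference of 0.25 on the log2 scale) but CPA+veh replicate 2 lay below control+veh replicate 4, and the difference did not pass a two-sided exact permutation test (p = 0.0571, adjusted p = 0.686 over 12 tests). In CPA+RO the ratio was 0.232, 0.248, 0.229 and 0.213, at -0.11 on the log2 scale against CPA+veh (exact permutation p = 0.229) and 0.14 against control+veh (exact permutation p = 0.2). The ratio of Nefh to Nefl averaged 0.0839 ± 0.0094 in CPA+RO, 0.0825 ± 0.0134 in CPA+veh and 0.0868 ± 0.0057 in control+veh (mean ± SD of 4 rats), and 4 rats against 4 allow no p below 0.0286.

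**Figure D2:**
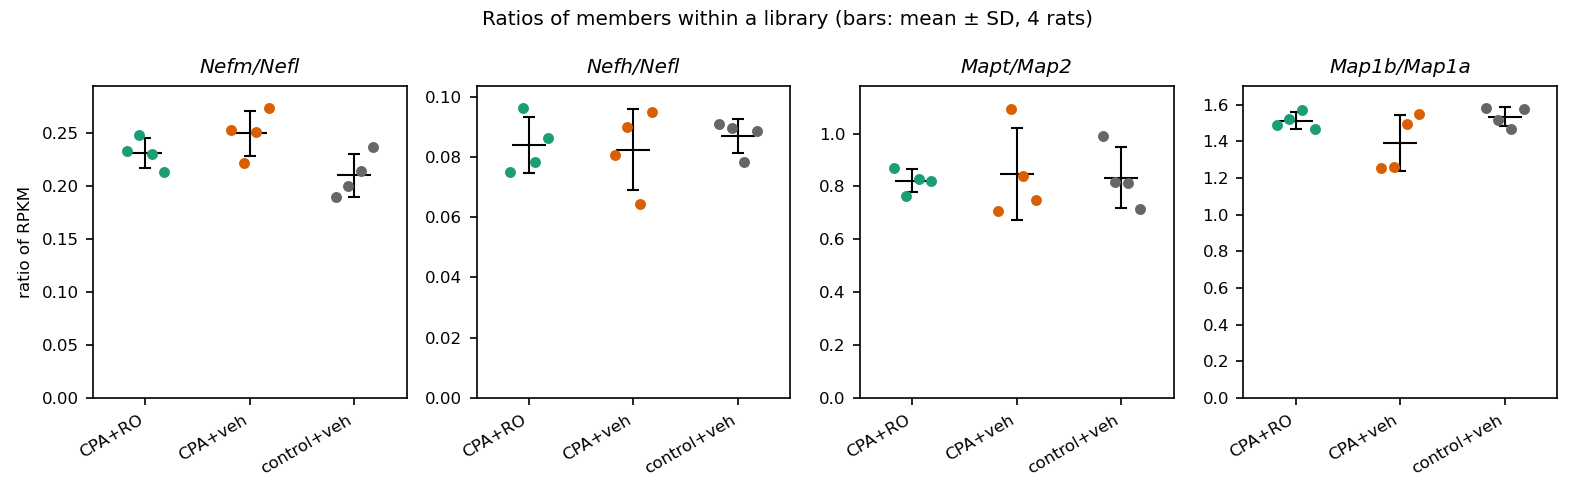
Ratio of the deposited RPKM of 2 genes within each library (vertical axes from 0) for Nefm/Nefl, Nefh/Nefl, Mapt/Map2 and Map1b/Map1a, with 1 point per rat in CPA+RO, CPA+veh and control+veh and black bars for the mean ± SD of 4 rats. Nefm/Nefl averages 0.231 in CPA+RO, 0.249 in CPA+veh and 0.210 in control+veh with overlapping rats, and Map1b/Map1a is lowest in CPA+veh replicates 1 and 2.

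The microtubule-associated proteins differed more between rats than between groups. Map1a, of mature neurites, had 1500.0, 1661, 1650.5 and 1618 CPM in CPA+RO, 1639.9, 1132, 1638 and 1673 CPM in CPA+veh and 1134, 1568, 1564 and 1594 CPM in control+veh. A single rat was low in each of the groups given vehicle, CPA+veh replicate 2 and control+veh replicate 1. Map1b, of growing neurites, had 2312, 2615, 2682 and 2457 CPM in CPA+RO, 2129, 1476, 2529 and 2676 CPM in CPA+veh and 1854, 2458, 2377 and 2594 CPM in control+veh. The same 2 rats were lowest, with CPA+veh replicate 1 next. Map2, of dendrites, had 1870.1, 2092, 2156 and 2082 CPM in CPA+RO, 2257, 1358, 1961 and 2207 CPM in CPA+veh and 1577, 2035, 1924 and 2252 CPM in control+veh, again lowest in these 2 rats. Against the mean of the 12 libraries, CPA+veh replicate 2 stood at -0.42, -0.65 and -0.53 on the log2 scale for Map1a, Map1b and Map2, and control+veh replicate 1 at -0.42, -0.32 and -0.31. Tau, encoded by Mapt, followed weakly with 783.9 to 875.5 CPM in CPA+RO, 725.7 to 808.5 CPM in CPA+veh and 765.4 to 811.6 CPM in control+veh, where CPA+veh replicate 2 was again lowest (-0.13).

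No group difference of these 4 genes passed the test. Map1b had the largest estimate, 0.19 on the log2 scale in CPA+RO against CPA+veh (standard error 0.15, interval -0.13 to 0.51, edgeR adjusted p = 0.876). It was 0.04 without CPA+veh replicate 2 and changed sign, to -0.05, without CPA+veh replicates 1 and 2. In CPA+veh against control+veh the log2 fold changes were 0.05 for Map1a (interval -0.21 to 0.32), -0.08 for Map1b (-0.39 to 0.24), -0.0011 for Map2 (-0.29 to 0.29) and -0.0045 for Mapt (-0.12 to 0.11). In CPA+RO against control+veh they were 0.13 for Map1a (-0.13 to 0.40), 0.12 for Map1b (-0.20 to 0.44), 0.07 for Map2 (-0.22 to 0.37) and 0.07 for Mapt (-0.04 to 0.18), and without control+veh replicate 1 they were 0.03 for Map1a, 0.02 for Map1b and -0.02 for Map2. The ratio of Map1b to Map1a was 1.25, 1.26, 1.49 and 1.55 in CPA+veh, against 1.58, 1.52, 1.47 and 1.57 in control+veh, where CPA+veh replicates 1 and 2 lay below every other library (two-sided exact permutation p = 0.143, adjusted p = 0.686). The ratio of Mapt to Map2 averaged 0.822 ± 0.043 in CPA+RO, 0.847 ± 0.173 in CPA+veh and 0.834 ± 0.115 in control+veh (mean ± SD of 4 rats).

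**Figure D3:**
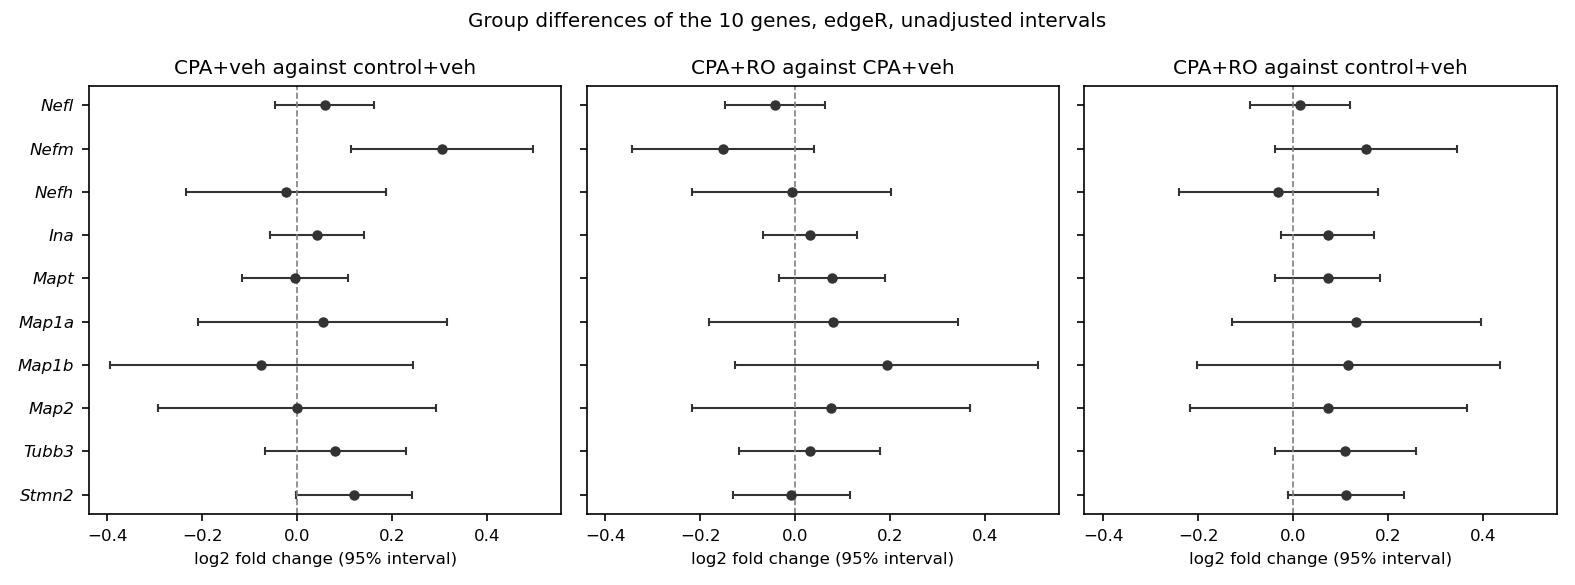
Log2 fold change of each of the 10 genes with its 95% interval (horizontal axis, edgeR, not adjusted for the number of genes) in CPA+veh against control+veh, CPA+RO against CPA+veh and CPA+RO against control+veh. The only interval that leaves out 0 is that of Nefm in CPA+veh against control+veh (0.11 to 0.50), and those of Map1a, Map1b and Map2 are the widest.

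CPA+veh replicate 2 was the lowest library for 4 of the 10 genes and the highest for Tubb3 and Stmn2, and control+veh replicate 1 was the lowest for Nefl, Nefm and Ina. Both were also low in other long gene models. Gene-model lengths, taken from the ratio of counts to RPKM, were 11.5 kb for Map1a, 11.9 kb for Map1b, 13.0 kb for Map2 and 6.34 kb for Mapt, and 1.76 to 3.85 kb for Tubb3, Stmn2 and the neurofilament genes. Across the genes tested with a length, Spearman's correlation of length with the departure of a library was -0.42 in CPA+veh replicate 2, -0.22 in CPA+veh replicate 1 and -0.22 in control+veh replicate 1, against 0.0054 to 0.22 in the other 9 libraries. A negative trend did not always go with low levels of the long genes. CPA+veh replicate 1 departed from the mean of the 12 libraries by 0.11 for Map1a, -0.12 for Map1b and 0.20 for Map2 on the log2 scale. With a correction for this trend the standard errors in CPA+veh against control+veh were 0.08 for Map1a, 0.09 for Map1b and 0.09 for Map2, where they were 0.12, 0.15 and 0.14 before, and the log2 fold changes were 0.11, -0.03 and 0.06. No gene of the 10 was called after this correction, and the part of RNA quality or library preparation in the trend was not tested. Without CPA+veh replicate 2 and control+veh replicate 1 together, a setting chosen after their values were seen, the log2 fold changes in CPA+veh against control+veh were 0.06 for Map1a, -0.02 for Map1b and 0.05 for Map2.

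**Figure D4:**
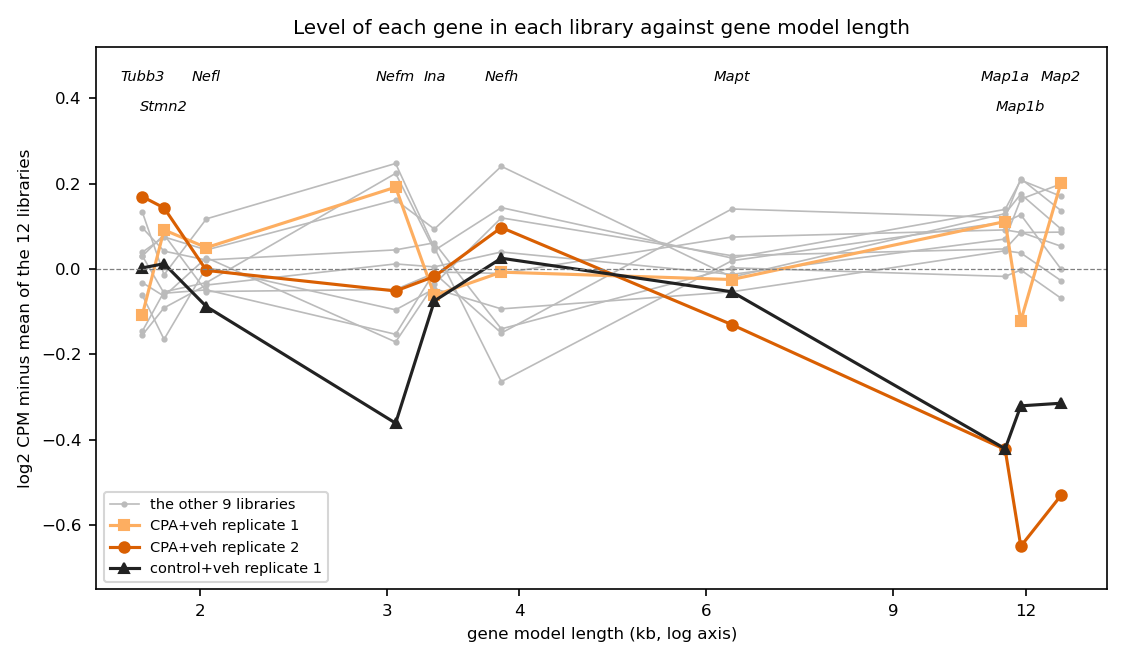
Log2 CPM of each of the 10 genes minus its mean over the 12 libraries (vertical axis) against the length of its gene model in kb (log horizontal axis), with 1 line per library. CPA+veh replicate 2 and control+veh replicate 1 fall below the other libraries at Map1a, Map1b and Map2, to between -0.65 and -0.31, CPA+veh replicate 2 is the highest at Tubb3 and Stmn2, and control+veh replicate 1 the lowest at Nefm, Nefl and Ina.

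Tubb3 and Stmn2, the short microtubule genes, lay slightly above control+veh in the means of both CPA groups, within the error of the test without a length correction. In CPA+veh against control+veh this rested in part on CPA+veh replicate 2, the highest library for both genes. Tubb3 was at 0.08 on the log2 scale in that comparison and at 0.02 without this library. Stmn2 was at 0.12, at 0.08 without this library and at 0.04 without CPA+veh replicates 1 and 2. Tubb3, the neuronal β-tubulin, had 387.5, 372.5, 370.1 and 370.2 CPM in CPA+RO, 336.5, 407.6, 397.5 and 327.6 CPM in CPA+veh and 363.1, 354.5, 347.3 and 325.6 CPM in control+veh. It was the only gene of the 10 whose groups did not overlap in a comparison, with all CPA+RO rats above all control+veh rats, as held in this direction for 2.83% of all genes. The difference was 1.08-fold and did not pass (log2 fold change 0.11, standard error 0.07, interval -0.04 to 0.26, edgeR adjusted p = 0.881), and CPA+veh rats lay on both sides of the CPA+RO rats. Stmn2 had 520.1, 532.3, 534.3 and 485.8 CPM in CPA+RO, 538.4, 558.0, 500.6 and 486.9 CPM in CPA+veh and 509.6, 483.4, 450.7 and 474.4 CPM in control+veh. Both CPA groups overlapped control+veh. Its log2 fold change was 0.12 in CPA+veh (interval -0.0035 to 0.24, adjusted p = 0.509) and 0.11 in CPA+RO (interval -0.01 to 0.23, adjusted p = 0.879), each against control+veh by edgeR. It was -0.0079 in CPA+RO against CPA+veh. With the length correction Stmn2 was at 0.08 in CPA+veh (interval -0.01 to 0.18) and 0.12 in CPA+RO (0.02 to 0.21), each against control+veh. The interval in CPA+RO then left out 0, but the gene was not called (edgeR adjusted p = 0.640).

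Over the 12 libraries the levels of the long microtubule-associated genes went together. Of the 45 pairs among the 10 genes, the highest Pearson r of log2 CPM were those of Map1a with Map2 (0.93, Spearman's rho 0.80), Map1a with Map1b (0.90, rho 0.80) and Map1b with Map2 (0.88, rho 0.61). Without CPA+veh replicate 2 and control+veh replicate 1 the r values were 0.66, 0.45 and 0.20 over 10 libraries. These 2 libraries were chosen as the lowest for the same genes. Leaving out the lowest values narrows the range and can itself lower r, so what the relations rest on was not tested. The lowest r was that of Tubb3 with Map2 (-0.65, rho -0.66), and it was -0.69 without the same 2 libraries. Nefl and Nefm, which lie on the same chromosome of GRCr8 with 1 other gene starting between them, had an r of 0.67 (rho 0.57). It was 0.53 without CPA+veh replicate 2 and control+veh replicate 1. Without the 2 libraries farthest from the median of Nefl it was 0.32, a cut that also narrows the range. Nefh had an r of -0.24 with Nefl and -0.06 with Nefm. These values share library scaling and the trend with length and are given as a description.

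Of the 19094 genes tested, the 100 nearest in pattern over the 12 libraries included Map1b and Map2 for Map1a, and Map1a and Map1b for Map2, and no other gene of the 10 for the remaining 8. Nearest to Map1b were Nf1, the neurofibromin gene (r = 0.99), Huwe1, a ubiquitin ligase (0.99), and Synj1, synaptojanin (0.99), and these were 0.94, 0.95 and 0.93 without CPA+veh replicate 2 and control+veh replicate 1. Nearest to Map2 were Sptbn1, a β-spectrin (0.98), and Ank2, ankyrin-B (0.96), which were 0.86 and 0.71 without the same 2 libraries. Nearest to Map1a were Ubr2, a ubiquitin ligase (0.96), Sptbn1 (0.96) and Ank3, ankyrin-G (0.95), which were 0.50, 0.67 and 0.64 without them. Nearest to Ina was Fbxo42, an F-box gene (0.96), to Mapt Heatr5b (0.95), to Tubb3 Thop1, an oligopeptidase (0.93), to Stmn2 RGD1562758 (0.92), to Nefh LOC103690457 (0.86), to Nefm Hsbp1l1 (0.90) and to Nefl Ski (0.86). Hsbp1l1 averaged 0.203 CPM and LOC103690457 0.367 CPM, so that these r values rest on few counts. All genes named here were picked as the highest r of 19094 genes over only 12 libraries. Such a choice favours high values, and whether they exceed chance was not tested. They also share library scaling and the trend with length.

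Around these genes, no gene of 10 lists of the same biology was called by edgeR (adjusted p under 0.05) in any comparison, and in CPA+RO against CPA+veh the smallest adjusted p of each list was 0.876. The genes of these lists at an unadjusted p under 0.05 were chosen after their values were seen. The list of 16 tubulins, of which 15 were tested, had 4 genes at an unadjusted p under 0.05 in CPA+veh and 4 in CPA+RO, each against control+veh and all of them higher (Tuba1b, Tuba1c and Tubb4a in both, Tuba4a in CPA+veh and Tubb2a in CPA+RO), and a median log2 fold change of 0.04 and 0.08. Of all genes, 9.94% and 5.75% had such a p in these comparisons. Without CPA+veh replicate 2 the list had 2 such genes and a median of 0.0054 in CPA+veh against control+veh. Tubb4a, a β-tubulin of neurons and oligodendrocytes, was at 593 CPM in CPA+RO, 595 CPM in CPA+veh and 508 CPM in control+veh (means over 4 rats), and its log2 fold changes against control+veh were 0.22 in CPA+RO and 0.23 in CPA+veh, with standard errors of 0.05 and adjusted p = 0.160 and 0.164 by edgeR. The most abundant α-tubulin gene, Tuba1a, was at 0.07 and 0.05 in the same comparisons. Of the 3 other stathmins Stmn1, Stmn3 and Stmn4 none was called, and Stmn3 was at 0.18 in CPA+veh against control+veh (adjusted p = 0.501). Among 29 other microtubule-associated proteins 12 lay above 0 in CPA+veh and 21 in CPA+RO, each against control+veh, with medians of -0.02 and 0.03. Without control+veh replicate 1 these counts were 12 and 17, and without CPA+veh replicate 2 the count in CPA+veh was 17. At an unadjusted p under 0.05 the list had Map1s (0.23) and Map6d1 (0.27) higher and Map7 (-0.22) lower in CPA+veh, and Map7 lower in CPA+RO (-0.16), each against control+veh. Such a p was held by 9.94% and 5.75% of all genes in the same comparisons. In this list Dclk1, a doublecortin-like kinase, averaged 1303 CPM in CPA+RO, 1201 CPM in CPA+veh and 1218 CPM in control+veh. In the list of 30 kinases and phosphatases that act on tau and neurofilaments 3 genes, or 10% of the list beside 9.94% of all genes, had an unadjusted p under 0.05 in CPA+veh against control+veh, all higher. They were Cdk5r2, an activator of the kinase Cdk5, at 0.43 (edgeR adjusted p = 0.288), Camk2a at 0.21 (0.485) and the phosphatase subunit Ppp2r1a at 0.11 (0.491). In CPA+RO against CPA+veh 1 gene of the list, the calcineurin subunit Ppp3ca, had such a p (0.13, edgeR adjusted p = 0.876), beside 4.41% of all genes. In CPA+RO against control+veh 0 had.

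The other lists were as close to 0. Shares of all genes at an unadjusted p under 0.05 were 9.94% in CPA+veh and 5.75% in CPA+RO, each against control+veh. In CPA+RO against CPA+veh the share was 4.41%. Of 12 other intermediate filament and linker genes 7 lay above 0 in CPA+veh against control+veh (median 0.01), with Gfap, the filament of astrocytes, at 0.25 (adjusted p = 0.509). In this list 1 gene, Nes, the nestin gene, was lower at an unadjusted p under 0.05 (-0.38, edgeR adjusted p = 0.390). Astrocyte markers summed to 3934 and 3236 CPM in CPA+veh replicates 1 and 2, and the part of glia in the value of Gfap was not tested. All 6 endothelial markers lay below 0 in the same comparison, and the part of the cell mix in the value of Nes was not tested. Among 10 collapsin response mediator and growth cone genes Basp1, a membrane protein of growth cones, was at 161 CPM in CPA+RO, 177 CPM in CPA+veh and 140.3 CPM in control+veh (means over 4 rats). It was at 0.33 on the log2 scale in CPA+veh against control+veh (standard error 0.09, edgeR adjusted p = 0.271). Marcks, an actin-binding protein kinase C substrate, was the other gene of this list at an unadjusted p under 0.05 in the same comparison and was lower, with 84.6 CPM in CPA+veh and 97.8 CPM in control+veh (log2 fold change -0.21, edgeR adjusted p = 0.429). The list had 5 genes above and 5 below 0 in this comparison. In CPA+RO, Dpysl5 and Dpysl3, of the collapsin response mediator family, were higher at an unadjusted p under 0.05 against CPA+veh (0.15 and 0.17), and Basp1 against control+veh (0.20). Gap43 in this list was at 0.09. Among 25 axonal motor genes the kinesin Kif5a, a motor for neurofilament transport, was at 0.20 in CPA+veh and 0.16 in CPA+RO against control+veh, with standard errors of 0.16. At an unadjusted p under 0.05 this list had Klc2, a kinesin light chain, in CPA+veh (0.16) and Klc2 and Kif3c in CPA+RO (0.13 and 0.11), all higher than in control+veh. The 22 genes of tubulin modification and severing had a median of 0.03 in CPA+veh against control+veh, and 0 had an unadjusted p under 0.05. In CPA+RO, Katnal1, a relative of the severing protein katanin, was higher at such a p against CPA+veh (0.38, edgeR adjusted p = 0.876) and against control+veh (0.51, edgeR adjusted p = 0.479), with 12.2 CPM in CPA+RO, 9.36 CPM in CPA+veh and 8.59 CPM in control+veh (means over 4 rats). Fignl1 was lower in CPA+RO against control+veh (-0.89, edgeR adjusted p = 0.831) at means of 0.248 and 0.460 CPM. All 16 genes of axonal spectrins, ankyrins and the initial segment lay above 0 in CPA+RO against control+veh (median 0.08) where 50% of all genes did, and 9 of 16 in CPA+veh against control+veh (median 0.0071). Without control+veh replicate 1, which was low in long gene models, 11 of 16 lay above 0 in CPA+RO (median 0.04) and 6 in CPA+veh (median -0.06), and without CPA+veh replicate 2, 14 in CPA+veh (median 0.08). With the length correction 15 lay above 0 in CPA+RO and 14 in CPA+veh, each against control+veh. At an unadjusted p under 0.05 against control+veh the list included Cntnap1, a protein of the paranodal junction, in CPA+RO (0.27, edgeR adjusted p = 0.355) and CPA+veh (0.25, adjusted p = 0.309), and Trim46, of the initial segment, in both (0.15 and 0.18), all higher. Of 15 axon injury response genes 8 lay above 0 in CPA+veh against control+veh (median 0.0068; leaving out control+veh replicate 1, 6 of 15 and -0.03) and Jun, a transcription factor induced by axon injury, was at 0.05. At an unadjusted p under 0.05 this list had Hspb1 higher and Capn1, a calpain that cuts neurofilaments, and its inhibitor Cast lower in CPA+veh (0.34, -0.35 and -0.18), and Npy higher and Capn1 lower in CPA+RO (0.29 and -0.28), each against control+veh.

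The markers of neurons gave the setting for these values. All 5 general neuron markers lay above 0 in CPA+veh (median 0.05) and in CPA+RO (median 0.10), each against control+veh, and 0 of them was called. Without control+veh replicate 1, 3 of 5 lay above 0 in CPA+veh (median 0.02) and 5 in CPA+RO (median 0.06). Their summed level was 6688 to 7310 CPM in CPA+RO, 6418 to 7096 CPM in CPA+veh and 6200 to 6968 CPM in control+veh, with overlap of all groups. The 4 markers of layer 5 projection neurons, cells rich in neurofilaments, summed to 592 to 650 CPM in CPA+RO, 577 to 667 CPM in CPA+veh and 561 to 647 CPM in control+veh. Single neuron markers at an unadjusted p under 0.05 were all higher than in control+veh. Such a p was held by 9.94% of all genes in CPA+veh and 5.75% in CPA+RO, each against control+veh. Thy1, a surface protein of projection neurons, was at 0.20 in CPA+RO and 0.23 in CPA+veh (edgeR adjusted p = 0.191 and 0.0916), Slc17a7, a vesicular glutamate transporter, at 0.18 and 0.13 (0.625 and 0.475), Tbr1, a transcription factor of excitatory neurons, at 0.23 and 0.26 (0.717 and 0.310), and Fezf2, of layer 5, at 0.23 and 0.20 (0.553 and 0.386). Camk2a, given above, had such a p in CPA+veh. The 6 interneuron markers summed to 675 to 762 CPM in CPA+RO, 716 to 739 CPM in CPA+veh and 675 to 692 CPM in control+veh. Their sums in CPA+veh lay above those of all control+veh rats, while CPA+RO overlapped both groups. Between CPA+veh and control+veh 4.62% of all single genes did not overlap, in either direction. That share gives no background for a sum of 6 markers. Sst alone averaged 158.3 CPM in CPA+veh and 121.0 CPM in control+veh. Of the 6, 4 lay above and 2 below 0 in CPA+veh against control+veh. Those at an unadjusted p under 0.05 were Sst, the somatostatin gene, at 0.39 (edgeR adjusted p = 0.367) and Slc32a1, the vesicular GABA transporter, at 0.21 (edgeR adjusted p = 0.328), while Gad1 was at -0.02, Vip at -0.0076, Gad2 at 0.02 and Pvalb at 0.21. In CPA+RO against control+veh Slc32a1 alone had such a p (0.20, edgeR adjusted p = 0.632). Oligodendrocyte markers had a median log2 fold change of 0.28 in CPA+veh against control+veh, with all 8 above 0, and endothelial markers one of -0.44, with all 6 below 0. In CPA+RO against control+veh these medians were 0.07, with 7 of 8 above 0, and -0.16, with all 6 below 0. The part of a different mix of cells in the levels of the 10 genes was not tested.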

How the data were processed

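Poly(A) RNA of mPFC tissue from 12 rats was sequenced on a HiSeq4000 after TruSeq Stranded mRNA preparation. The submitters' processing notes list STAR, SAMtools, bcl2fastq and FastQC, beside the builds rn6 and Rnor_6.0. Tool versions, how reads were counted and which annotation served were not given in the sources used here. The deposited counts are raw whole numbers per gene and library, made by the authors without normalization, and the deposited RPKM were made by the authors from those counts divided by gene-model length in kilobases and by the library total, rounded to 2 decimals.

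Counts were tested in R 4.3.3 with edgeR 4.0.16 (filterByExpr by group, TMM, quasi-likelihood test, group as the only term, all 12 libraries in 1 fit). P-values were adjusted by Benjamini-Hochberg over 19094 genes, with a threshold of 0.05. This takes the place of the study's one-way ANOVA with adjusted post hoc tests. Log2 CPM for correlations used a prior count of 2. Ratios of RPKM on the log2 scale were compared by a two-sided exact permutation test, which has 35 mirrored splits (Python 3.11.15). Gene-model lengths came from counts over RPKM for 91.7% of genes tested (mean RPKM of at least 0.1), and the length correction entered a lowess trend on length in each library (span 0.3) as an offset. Alternatives were other scalings, DESeq2 1.42.0, limma 3.58.1 (voom, quality weights, and log2 RPKM with pseudocounts of 1 and 0.1), other filters, only the groups compared, a block for the replicate number, the length correction with and without it, and libraries left out. The test was checked on simulated data with planted changes.

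Genes were named from the 10 genes, the up to 4 genes of highest mean CPM in each list together with any gene called, the 3 genes of highest r with each of the 10, and Chrm3. Not every gene of high CPM or high r is given in the text. Other genes of the lists were named after their values were seen, for an unadjusted p under 0.05. Vip and Pvalb were named beside the other interneuron markers without such a p. The 10 genes and the lists were chosen with earlier results of these data known. The labels name 1 rat tissue sample per library, and the methods place the rats in cohorts that are not tied to libraries, so no batch term was fitted and batch and group cannot be told apart. Promoter windows come from RefSeq tables of GRCr8, which is not the build of the counts. Those tables held a window for 5 of the 10 genes and none for the other 5.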

Additional observations from a re-analysis of the deposited data

Results flagged for a closer look

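In 4 of 42 sets of 4 values (10 genes and 4 ratios in 3 groups) a library lay far from the other 3 of its group by Dixon's test, where chance gives about 5%. The test used CPM for the genes and log2 values for the ratios. Map1a was at 1132 CPM in CPA+veh replicate 2, below 1638 to 1673 CPM in the other CPA+veh rats. It was at 1134 CPM in control+veh replicate 1, below 1564 to 1594 CPM in the other control+veh rats. Tubb3 was at 387.5 CPM in CPA+RO replicate 1, above 370.1 to 372.5 CPM in the other CPA+RO rats. The ratio of Nefh to Nefl was 0.0784 in control+veh replicate 3, below 0.0886 to 0.0908 in the other control+veh rats. On the log2 scale of the test it was -3.672, below -3.497 to -3.461. This flag lay barely above the cut-off and depends on the log2 scale, as the untransformed ratios would not pass.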

How the results depend on the processing

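None of the 10 genes was called under any of the 28 alternatives in any comparison. Nefm in CPA+veh against control+veh kept its direction in all of them, between 0.24 and 0.38 (adjusted p 0.128 to 0.544). Values near 0 changed sign, and so did the larger estimate of Map1b in CPA+RO against CPA+veh (0.19). In CPA+veh against control+veh Mapt was 0.016 and Map2 0.044 with sample quality weights, 0.024 and 0.058 with the length correction, 0.024 and 0.056 with the length correction and replicate block, 0.016 and 0.047 without CPA+veh replicate 2 and control+veh replicate 1 (chosen after seeing the data), and 0.044 and 0.098 without CPA+veh replicates 1 and 2 (Map1b 0.17). In CPA+RO against CPA+veh Map2 was -0.0072 and Stmn2 0.036 with the length correction, and -0.0036 and 0.036 with the replicate block added. Nefh was 0.046 and Stmn2 0.014 with quality weights. Without CPA+veh replicate 2 and control+veh replicate 1, Nefh was 0.027, Map1a -0.037, Map2 -0.062 and Stmn2 0.027, and without CPA+veh replicates 1 and 2 Nefh was 0.040, Ina -0.011, Map1a -0.042, Map1b -0.048, Map2 -0.023 and Stmn2 0.070. In CPA+RO against control+veh Nefl was -0.019 on log2 RPKM with either pseudocount (-0.0188 with 1, -0.0189 with 0.1) and also unfiltered, and -0.0077 without CPA+veh replicate 2 and control+veh replicate 1, as was Map2 with -0.015. The cause of these changes was not tested. Counts above 0 and medians of the lists were recomputed without CPA+veh replicate 1, CPA+veh replicate 2 or control+veh replicate 1 and with the length correction, a choice made after seeing the data. With 1 library left out, values that changed sign ranged in CPA+veh against control+veh from -0.079 to 0.055 for Nefh, -0.026 to 0.028 for Mapt, -0.055 to 0.17 for Map1a, -0.19 to 0.074 for Map1b, -0.094 to 0.14 for Map2, in CPA+RO against CPA+veh from -0.10 to 0.048 for Nefh, -0.037 to 0.13 for Map1a, -0.062 to 0.15 for Map2, -0.017 to 0.084 for Tubb3, -0.035 to 0.027 for Stmn2, and in CPA+RO against control+veh from -0.0077 to 0.031 for Nefl, -0.12 to 0.014 for Nefh, -0.015 to 0.15 for Map2. The log2 ratio of Nefh to Nefl ranged from -0.16 to 0.026 in CPA+veh against control+veh and -0.079 to 0.11 in CPA+RO against CPA+veh, and that of Mapt to Map2 from -0.12 to 0.10, -0.10 to 0.11 and -0.083 to 0.074 in the 3 comparisons in the order above.

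Genes called among all genes were 22 in CPA+veh against control+veh, and 115 by DESeq2, 5 with quality weights, 12 with CPM of at least 1 in 4 libraries, 12 on unfiltered log2 RPKM and 14 without CPA+veh replicates 1 and 2. They were 0 in CPA+RO against CPA+veh, and 1 with only those groups fitted, and 21 in CPA+RO against control+veh, and 82 by DESeq2, 33 with quality weights, 48 without a filter, 13 with CPM of at least 1 in 4 libraries, 32 with only those groups and 7 on unfiltered log2 RPKM. Replicate numbers did not pair the libraries, since deviations of equal numbers correlated at -0.11 to 0.098 and 4 of 12 libraries correlated best with their own number. With the replicate block 17, 0 and 21 genes were called in the 3 comparisons, and Nefm was 0.31 in CPA+veh against control+veh (adjusted p = 0.384).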
